A study of Mus musculus with 9 samples.

Results

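*Ceacam1*, *Ceacam2* and *Ceacam10* are the 3 genes of the carcinoembryonic antigen (CEA) family described here, out of 47729 genes listed in the RNA-Seq tables of newborn mouse lens. They were taken by symbol, and the group was chosen by measured values, since the counts of *Ceacam2* and *Ceacam10* were higher in *Le-Cre* than in *FVB/N* lenses. The values of that comparison are therefore a description and carry no test for these genes. *Ceacam1* belongs with them as a relative that shares much of its sequence with *Ceacam2*. All lenses came from mice on an *FVB/N* background at postnatal day 0. Non-transgenic *FVB/N* lenses were compared with lenses hemizygous for *P0-3.9GFPCre* or for *Le-Cre*, and every line was represented by 3 pools, each of 6 lenses taken from 3 mice. Both transgenes use the *Pax6* P0 promoter, which is active in the lens placode and surrounding surface ectoderm and later in the lens epithelium, so whole lenses mix expressing epithelium with fiber cells. *P0-3.9GFPCre* encodes a fusion of GFP and CRE, whereas *Le-Cre* encodes a nuclear CRE followed by GFP from an internal ribosome entry site. The labels name no floxed allele. The *Le-Cre* strain descends from 1 founder, so effects of the transgene and of its insertion site on these RNA levels cannot be told apart. *P0-3.9GFPCre* is likewise represented by 1 line. The study reports small eyes also in homozygotes from another *Le-Cre* founder with a different insertion site, but no lenses of that line are among these samples.

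CEACAM proteins belong to the immunoglobulin superfamily and carry an N-terminal variable-type domain by which cells bind one another or soluble ligands. CEACAM1, the best known member, is an adhesion receptor of epithelia, endothelia and leukocytes. Its long cytoplasmic tail recruits tyrosine phosphatases, and it takes part in insulin clearance. CEACAM2 is its close relative in the mouse. CEACAM10 is a smaller protein built from variable-type domains that lacks a membrane anchor and is secreted. The pregnancy-specific glycoproteins (*Psg* genes), secreted mainly by the placenta, form the other large branch of the family.

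All of the members lie on chromosome 7 of GRCm38 and are protein coding. *Ceacam10* (ENSMUSG00000054169) spans 24777206 to 24784657 on the plus strand. *Ceacam1* (ENSMUSG00000074272) spans 25461707 to 25477603 and *Ceacam2* (ENSMUSG00000054385) spans 25516042 to 25539857, both on the minus strand. *Ceacam1* and *Ceacam2* are separated by 38438 bases, and *Ceacam10* lies 677049 bases from *Ceacam1*. The sequences bear on how reads can be assigned, so a stretch of 60 coding bases from exon 2 is shown for each, covering coding bases 172 to 231 of the longest coding transcript. This stretch was picked as the one without gaps in which *Ceacam1* and *Ceacam2* differ most, so their many differences there come from the choice. It lies at chr7:25476537-25476596 (minus strand) in *Ceacam1*, chr7:25538767-25538826 (minus strand) in *Ceacam2* and chr7:24778233-24778292 (plus strand) in *Ceacam10*, and capitals mark the 32 positions that are not the same in all members.
Ceacam1: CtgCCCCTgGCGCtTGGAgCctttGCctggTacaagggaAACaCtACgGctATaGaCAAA
Ceacam2: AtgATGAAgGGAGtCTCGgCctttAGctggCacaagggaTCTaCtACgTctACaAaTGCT
Ceacam10: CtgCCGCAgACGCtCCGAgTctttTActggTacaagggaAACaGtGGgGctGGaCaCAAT
In this stretch *Ceacam1* and *Ceacam2* differed at 26 positions, *Ceacam1* and *Ceacam10* at 15, and *Ceacam2* and *Ceacam10* at 28. The stretch therefore does not stand for the whole coding sequence, over which *Ceacam1* and *Ceacam2* were the closest pair. *Ceacam1* and *Ceacam2* were 90.4% identical, with a longest identical run of 270 bases, against 67.2% for *Ceacam1* and *Ceacam10* and 63.7% for *Ceacam2* and *Ceacam10*. Of all distinct 51-base sequences in the annotated transcripts, the length of a read, 46.3% of those in *Ceacam2* also occurred in *Ceacam1*. The reverse share was 29.4%. *Ceacam10* shared only 2.94% of its read-length sequences with any other gene. Reads from the stretch shown can be told apart, whereas reads from the identical runs of *Ceacam1* and *Ceacam2* were divided between the 2 genes by the estimate that made the counts.

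The upstream sequences are shown because *Ceacam2* and *Ceacam10* were both chosen for higher levels in *Le-Cre*. Each runs from 250 bases before to 30 bases after the start of the gene in RefSeq (build GRCm38.p6), at chr7:25477596-25477875 (minus strand) for *Ceacam1*, chr7:25539975-25540254 (minus strand) for *Ceacam2* and chr7:24776917-24777196 (plus strand) for *Ceacam10*. Capitals mark matches to CACGTG, an E-box, and to TTCNNGAA, an inverted pair of heat shock element units. These motifs overlap no other motif marked here, and were searched on both strands.
Ceacam1: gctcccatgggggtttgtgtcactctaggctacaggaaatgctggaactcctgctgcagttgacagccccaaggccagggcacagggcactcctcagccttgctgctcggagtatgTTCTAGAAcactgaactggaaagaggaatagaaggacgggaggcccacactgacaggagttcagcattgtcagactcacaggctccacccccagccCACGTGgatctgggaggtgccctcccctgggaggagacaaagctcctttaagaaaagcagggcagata
Ceacam2: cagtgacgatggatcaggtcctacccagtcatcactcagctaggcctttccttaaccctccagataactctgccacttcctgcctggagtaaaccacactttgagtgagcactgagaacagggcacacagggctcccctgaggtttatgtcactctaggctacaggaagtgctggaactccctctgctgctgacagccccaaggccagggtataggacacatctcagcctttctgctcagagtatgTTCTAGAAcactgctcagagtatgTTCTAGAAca
Ceacam10: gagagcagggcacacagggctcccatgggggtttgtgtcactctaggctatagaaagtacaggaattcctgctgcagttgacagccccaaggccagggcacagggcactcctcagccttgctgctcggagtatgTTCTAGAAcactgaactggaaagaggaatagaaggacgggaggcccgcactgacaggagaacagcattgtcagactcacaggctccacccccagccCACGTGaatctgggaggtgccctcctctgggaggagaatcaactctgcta
The *Ceacam1* and *Ceacam10* windows were 93.1% identical over 262 aligned bases, with a run of 114 identical bases. *Ceacam2* aligned with *Ceacam1* over 149 bases at 81.2% identity and with *Ceacam10* over 167 bases at 80.8%. The RefSeq start used for *Ceacam2*, at 25540004, lies farther upstream in the shared sequence than those of the other members. It also lies outside the GENCODE span of *Ceacam2* given above, which begins at 25539857 on the minus strand. Alignment lengths, motif positions and the sequence covered thus depend on the start used. The longest run present in all members was TGACAGCCCCAAGGCCAGGG, which begins 190 bases before the start of *Ceacam1*, 60 before that of *Ceacam2* and 172 before that of *Ceacam10*. TTCTAGAA occurred once in *Ceacam1*, once in *Ceacam10* and 2 times in *Ceacam2*, and 8.03% of 32851 such windows over all genes hold TTCNNGAA. The E-box occurred once in *Ceacam1* and once in *Ceacam10*, against 6.79% of all windows. Counted from the run shared by all members, the *Ceacam2* window ends before the position that would match this E-box. The sequence of *Ceacam2* past its window was not searched, so a lack of the E-box there was not shown. Searches for the SP1 box GGGCGG, the interferon regulatory factor core AANNGAAA, the AP-1 site TGANTCA and the p53 half-site found no match in these windows. These are matches of letters, and binding was not measured.

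The pools held 20670968 to 28098059 expected counts each, and all members passed the filter on low counts that left 15557 genes for testing. Expected counts are read numbers estimated per gene, with reads that match several genes divided between them. TPM, transcripts per 1e6 transcripts, is the same estimate per length of transcript. The lens markers were abundant in every pool, with *Cryaa*, the most abundant alpha-crystallin, between 123596 and 151085 TPM. The labels do not give the sex of the mice, and Y-linked reads (*Kdm5d*, *Uty*, *Eif2s3y* and *Ddx3y*) differed between pools. Their sum was 129.7, 193.2 and 121 CPM (counts per 1e6 counts) in the *FVB/N* pools, 56.2, 134.6 and 1.67 in the *P0-3.9GFPCre* pools and 1.53, 74.2 and 0.619 in the *Le-Cre* pools. P-values judge differences between lines against the spread between pools, not between single mice.

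Per length, *Ceacam10* was the most abundant member in every pool, *Ceacam2* was next and *Ceacam1* was lowest. The lowest *Ceacam10* level over all pools, 33.04 TPM, lay above the highest *Ceacam2* level, 26.15 TPM, and no *Ceacam1* level exceeded 0.65 TPM. *Ceacam10* lay between the 95.95th and the 97.84th percentile of all listed genes, *Ceacam2* between the 91.41st and the 94.81st, and *Ceacam1* between the 66.25th and the 72.35th. By read number *Ceacam2* stood above *Ceacam10*, because its transcripts averaged 3000 to 3083 bases in the pools and those of *Ceacam10* 786 to 881 bases. *Ceacam10* made up 64.4% to 73.1% of the summed TPM of the members, and the ratio of *Ceacam10* to *Ceacam2* TPM was 2.54 ± 0.22 (SD, n = 3) in *FVB/N*, 2.08 ± 0.27 in *P0-3.9GFPCre* and 2.34 ± 0.37 in *Le-Cre*. The summed level of the members was 47.48 to 53.36 TPM in *FVB/N*, 55.01 to 69.99 TPM in *P0-3.9GFPCre* and 79.7 to 83.36 TPM in *Le-Cre*.

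**Figure D1:**
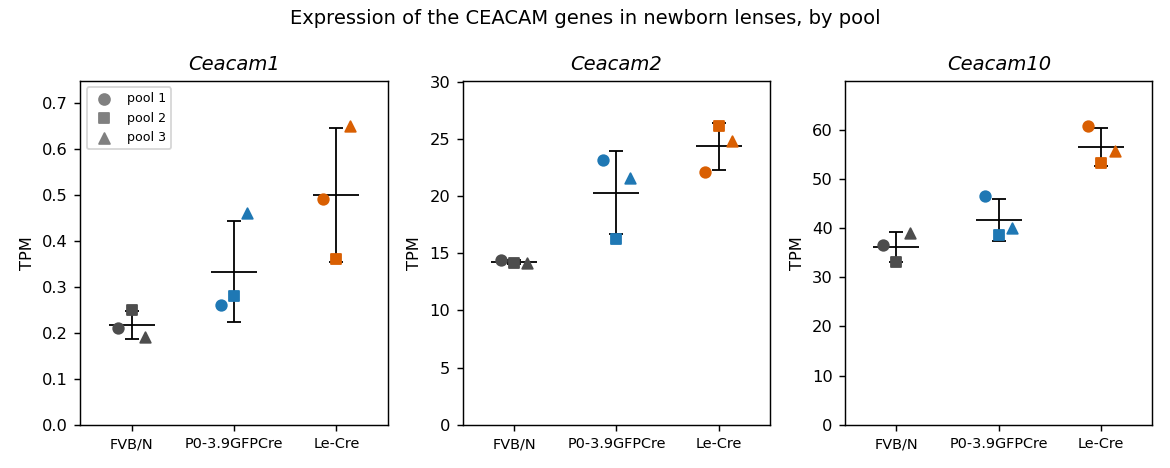
TPM of *Ceacam1*, *Ceacam2* and *Ceacam10* in each pool of the 3 lines, with 1 symbol per pool and the mean and SD of each line in black. The *Le-Cre* pools of *Ceacam10*, at 53.19 to 60.75 TPM, sit above all other pools, and *Ceacam2* is tightest in *FVB/N*, at 14.15 to 14.46 TPM.

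*Ceacam2* was measured at 14.46, 14.19 and 14.15 TPM in the *FVB/N* pools. It was measured at 23.14, 16.22 and 21.58 TPM in the *P0-3.9GFPCre* pools and at 22.12, 26.15 and 24.86 TPM in the *Le-Cre* pools. The *FVB/N* pools were nearly alike and lay below every transgenic pool, while 1 *P0-3.9GFPCre* pool, pool 2, stayed close to them. After library normalization by the trimmed mean of M-values (TMM), *Ceacam2* stood at 41.0, 39.8 and 42.3 CPM in *FVB/N*, at 61.9, 45.1 and 58.9 CPM in *P0-3.9GFPCre* and at 63.0, 69.1 and 73.5 CPM in *Le-Cre*. On this scale every *FVB/N* pool lay below every *P0-3.9GFPCre* pool, and these below every *Le-Cre* pool, whereas in TPM the lowest *Le-Cre* pool lay below the highest *P0-3.9GFPCre* pool. Both patterns contain the difference by which *Ceacam2* was chosen, so nothing is read from their rarity. As background, 0.116% of tested genes had the full order in CPM, and 1.66% had all *FVB/N* pools below all 6 transgenic pools.

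The difference that led to the choice of *Ceacam2*, *Le-Cre* against *FVB/N*, was from 41.0 ± 1.24 to 68.5 ± 5.23 CPM (SD, n = 3), a log2 fold change of 0.74 (standard error 0.11) or 1.67-fold. In that comparison 10 of the 15557 tested genes, or 0.0643%, passed the cutoff (1.5-fold or more, adjusted p not above 0.05), and *Ceacam2* and *Ceacam10* were among them by choice. *Ceacam2* and *Ceacam10* were themselves just inside it, which describes the values behind the choice and is no test. Besides them, the called genes nearest the cutoff by the naming rule were *Gm11273* and *Pgam1-ps2*, at adjusted p of 0.0482 and 0.0497 in edgeR. The nearest uncalled genes of at least 1.5-fold were *Gm13910* and *Gm37795*, at 0.0592 and 0.0604. *Ceacam1* was not called. *P0-3.9GFPCre* lenses averaged 55.3 ± 8.95 CPM of *Ceacam2*, a log2 fold change of 0.43 against *FVB/N* (95% confidence interval 0.19 to 0.67). The unadjusted p was 0.00215 and the adjusted p 0.590 by the edgeR quasi-likelihood test, and 0% of tested genes passed the cutoff in this comparison. Leaving out *P0-3.9GFPCre* pool 2 gave a log2 fold change of 0.56 (edgeR adjusted p of 0.104). Without a filter on low counts the edgeR adjusted p was 0.0147 at an unchanged fold change of 0.43, which is below 1.5-fold. *Le-Cre* lenses were higher than *P0-3.9GFPCre* lenses by a log2 fold change of 0.31 (interval 0.070 to 0.54), with an unadjusted p of 0.0158 and an edgeR adjusted p of 0.525. Without *P0-3.9GFPCre* pool 2 this difference fell to 0.18, so its size rested largely on that pool. The comparisons share pools with each other and with the one by which the genes were chosen, so that choice favours small p-values in them.

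*Ceacam10* was measured at 36.44, 33.04 and 39.02 TPM in *FVB/N* lenses. It was measured at 46.59, 38.51 and 39.91 TPM in *P0-3.9GFPCre* lenses and at 60.75, 53.19 and 55.56 TPM in *Le-Cre* lenses. The *Le-Cre* pools lay above all others, and the *FVB/N* and *P0-3.9GFPCre* pools overlapped. In CPM the levels were 26.6 ± 2.70 in *FVB/N*, 30.2 ± 1.49 in *P0-3.9GFPCre* and 40.6 ± 2.61 in *Le-Cre* (SD, n = 3 each), and the difference of *Le-Cre* from *FVB/N*, which chose the gene, was a log2 fold change of 0.61 (standard error 0.09) or 1.53-fold. The log2 fold change of *P0-3.9GFPCre* against *FVB/N* was 0.18 (interval −0.01 to 0.38), with an unadjusted p of 0.0637 and an edgeR adjusted p of 0.741. That of *Le-Cre* against *P0-3.9GFPCre* was 0.43 (interval 0.23 to 0.62), with an unadjusted p of 4.89e-04 and an edgeR adjusted p of 0.292, the 26th smallest p of 15557 genes. The *Le-Cre* pools also entered the comparison that chose *Ceacam10*, which favours a small p and a high rank here. The adjusted p was 0.0180 with DESeq2 and 0.0121 in edgeR without the filter, while the fold change stayed under 1.5-fold in each, and over all alternatives it ran from 0.0121 to 0.712. In this direct comparison 0% of tested genes passed the cutoff. *Ceacam2* and *Ceacam10* had all *Le-Cre* pools above all *P0-3.9GFPCre* pools in CPM, as had 6.74% of tested genes. Between *P0-3.9GFPCre* and *FVB/N* only *Ceacam2* had non-overlapping pools in CPM, with *P0-3.9GFPCre* above, as had 6.02% of tested genes.

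*Ceacam1* was near the limit of detection. Its expected counts were 11.66, 13.49 and 8.38 in *FVB/N*, 12.61, 13.14 and 18.06 in *P0-3.9GFPCre* and 38.69, 19.03 and 25.43 in *Le-Cre* pools. These correspond to 0.19 to 0.25 TPM, 0.26 to 0.46 TPM and 0.36 to 0.65 TPM. All *Le-Cre* pools lay above all *FVB/N* pools, as in 6.46% of tested genes, while in CPM the *P0-3.9GFPCre* pools overlapped with both other lines. *Le-Cre* against *FVB/N* gave a log2 fold change of 1.28 (standard error 0.43), which is given without a test. *P0-3.9GFPCre* against *FVB/N* gave 0.55 (interval −0.42 to 1.53, edgeR adjusted p of 0.847), and *Le-Cre* against *P0-3.9GFPCre* gave 0.72 (interval −0.21 to 1.65, edgeR adjusted p of 0.724). Both intervals include 0 and also a rise of 1.5-fold, so a difference was not detectable at this depth. The counting program's credibility interval for the *Ceacam1* TPM lay above its point estimate in 9 of 9 pools, for example 0.300 to 0.797 TPM around a point estimate of 0.21 TPM in *FVB/N* pool 1.

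Because *Ceacam1* and *Ceacam2* share much sequence, their counts were also summed. *Ceacam1* made up 0.805% to 2.14% of the summed counts of both genes in each pool, so the sum followed *Ceacam2*. The sum was 1094.48, 938.61 and 1040.75 expected counts in *FVB/N*, 1518.7, 945.29 and 1331.05 in *P0-3.9GFPCre* and 1810.54, 1791.25 and 1649.56 in *Le-Cre* pools. Its log2 fold change was 0.75 (standard error 0.11) in *Le-Cre* against *FVB/N*, 0.43 (interval 0.20 to 0.67, edgeR adjusted p of 0.590) in *P0-3.9GFPCre* against *FVB/N* and 0.31 (interval 0.08 to 0.55, edgeR adjusted p of 0.511) in *Le-Cre* against *P0-3.9GFPCre*. The values of the sum and of *Ceacam2* alone differed by 0.01 or less on the log2 scale.

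**Figure D2:**
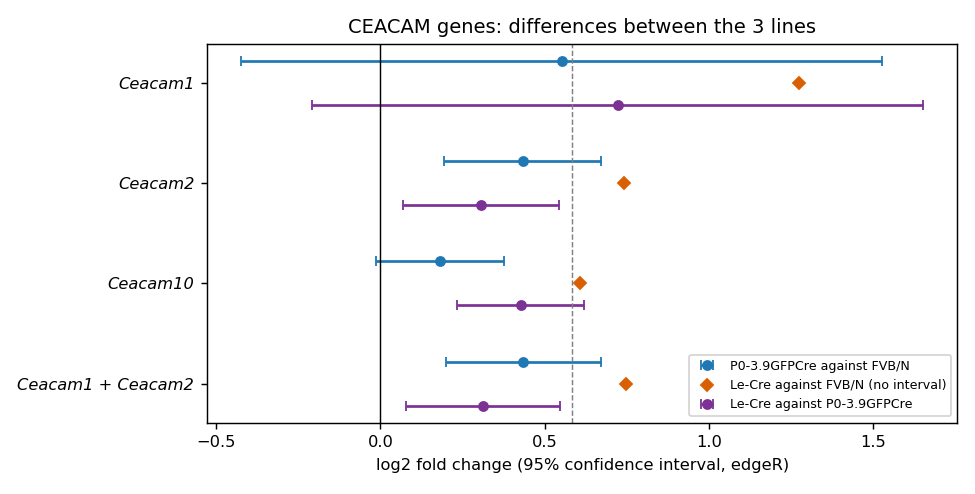
Log2 fold changes of the members and of the sum of *Ceacam1* and *Ceacam2* in the 3 comparisons, with 95% confidence intervals from edgeR except for *Le-Cre* against *FVB/N* (diamonds), which chose the genes. The dashed line marks 1.5-fold, and the intervals of *Ceacam1* are the widest.

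The levels of both genes were read beside the Y-linked sum of each pool. The *FVB/N* pools and *P0-3.9GFPCre* pool 2 had the 4 highest Y-linked sums, 121 to 193.2 CPM, and the 4 lowest *Ceacam2* levels, 39.8 to 45.1 CPM. Within *Le-Cre*, pool 2 had a Y-linked sum of 74.2 CPM against 1.53 and 0.619 in the others, with *Ceacam2* at 69.1 against 63.0 and 73.5 CPM and *Ceacam10* at 37.6 against 42.1 and 42.2 CPM. In the *FVB/N* pools *Ceacam10* was 23.9 CPM at a Y-linked sum of 193.2, 26.7 CPM at 129.7 and 29.3 CPM at 121. In the *P0-3.9GFPCre* pools it was 29.5 CPM at a Y-linked sum of 134.6, 31.9 CPM at 56.2 and 29.2 CPM at 1.67. The *FVB/N* values thus ran opposite to the Y-linked sum, whereas the *P0-3.9GFPCre* pool with the fewest Y-linked reads had the lowest *Ceacam10* level of that line. When the share of Y-linked reads entered the fit, the log2 fold changes in *Le-Cre* against *FVB/N* were 0.65 for *Ceacam2*, 0.54 for *Ceacam10* and 0.77 for *Ceacam1*. In *P0-3.9GFPCre* against *FVB/N* they were 0.38, 0.15 and 0.28, with edgeR adjusted p of 0.803, 0.837 and 0.947. The direction was thus kept at a smaller size in all of them. Every *FVB/N* pool had a higher Y-linked sum (121 CPM or more) than every *Le-Cre* pool (74.2 CPM or less). In that comparison the covariate therefore overlaps with the line, and their parts in the difference cannot be fully told apart.

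**Figure D3:**
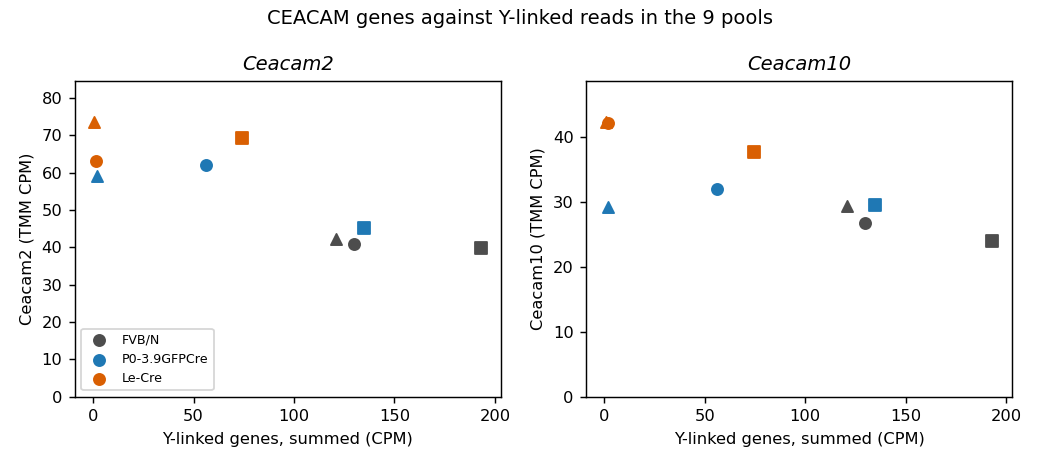
*Ceacam2* and *Ceacam10* (TMM-normalized CPM) against the summed CPM of the Y-linked genes in the 9 pools, colored by line, with circles, squares and triangles for pools 1, 2 and 3. The 4 pools with the most Y-linked reads have the 4 lowest *Ceacam2* values, and all *FVB/N* pools lie at 121 CPM or more on the horizontal axis.

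Of the 27 other CEA family genes listed, 13 *Ceacam* and 14 *Psg* genes, 11 were listed at 0 in every pool and 21 stayed under 3 counts in every pool. *Psg16* and *Psg23* were the other family genes that could be tested. *Psg16*, a pregnancy-specific glycoprotein gene known for transcripts in brain, was measured at 2.16, 2.67 and 1.40 TPM in *FVB/N*, at 2.80, 2.20 and 2.23 TPM in *P0-3.9GFPCre* and at 1.59, 2.20 and 1.92 TPM in *Le-Cre* pools. Its pools overlapped between the *FVB/N* and transgenic lines, and its log2 fold changes against *FVB/N* were 0.15 in *P0-3.9GFPCre* (edgeR adjusted p of 0.911) and −0.16 in *Le-Cre* (0.902). *Psg23* had at most 18.81 counts in a pool, and log2 fold changes of −0.31 and −0.48 (edgeR adjusted p of 0.953 and 0.919). *Ceacam9*, the next in order, had 1 to 5 counts per pool.

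**Figure D4:**
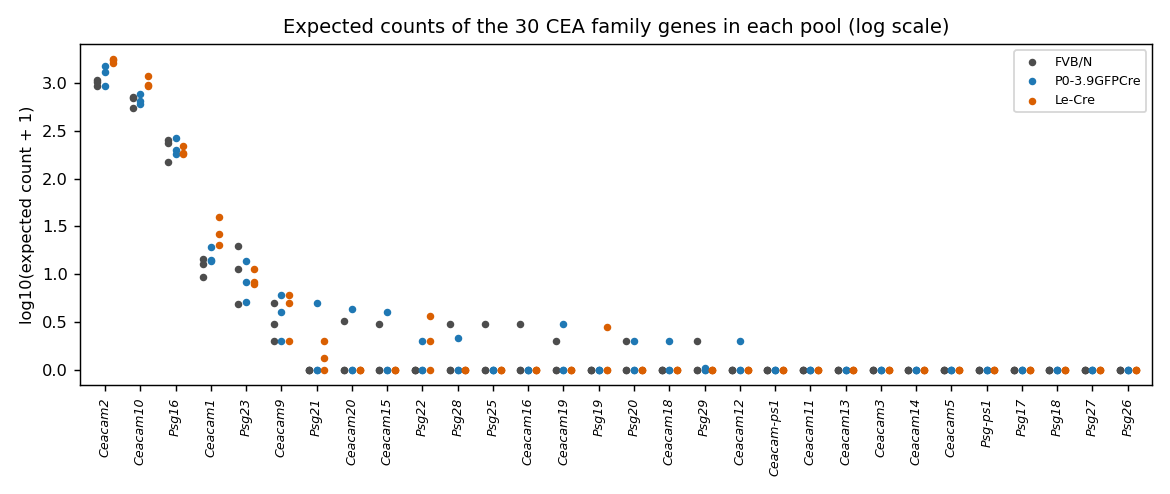
Expected counts of the 30 CEA family genes in every pool, as log10(expected count + 1), ordered by their highest count and colored by line. *Ceacam2*, *Ceacam10* and *Psg16* stand apart from the others, and 11 genes lie at 0 in all 9 pools.

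CEACAM1 works through partners, which were examined as a list of 20 genes. Of these, 18 could be tested, and 0 passed the cutoff in any comparison by edgeR, with a median log2 fold change of 0.04 in *P0-3.9GFPCre* and −0.03 in *Le-Cre* against *FVB/N* (0.00 over all tested genes in both). At an unadjusted p under 0.05, 2 were higher and 1 lower in *P0-3.9GFPCre* against *FVB/N*, where 3.41% of all tested genes were higher and 3.41% lower. In *Le-Cre*, 1 was higher and 3 were lower, where 3.6% of all tested genes were higher and 4.35% lower. The phosphatases that bind the cytoplasmic tail differed in level, with *Ptpn11* at 30.65 to 39.01 TPM and *Ptpn6*, the form typical of blood cells, at 0.49 to 2.55 TPM. *Ctnnb1*, encoding beta-catenin, stood at 248.94 to 312.62 TPM, and *Insr*, the insulin receptor, at 8.21 to 11.84 TPM. The smallest p in *P0-3.9GFPCre* belonged to *Irs1*, an insulin receptor substrate, with a log2 fold change of −0.25 (edgeR adjusted p of 0.590). In *Le-Cre* it belonged to *Calm3*, a calmodulin gene, which averaged 97.49 CPM there against 119.85 CPM in *FVB/N*, with a log2 fold change of −0.30 (edgeR adjusted p of 0.331).

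Among 11 genes known to regulate the transcription or splicing of *Ceacam1*, 10 could be tested and 0 passed the cutoff in any comparison by edgeR. At an unadjusted p under 0.05, 0 stood out in *P0-3.9GFPCre* and 1, *Hnrnpm*, in *Le-Cre* against *FVB/N*. Their median log2 fold change was 0.06 in *P0-3.9GFPCre* and −0.04 in *Le-Cre* against *FVB/N*. *Usf1* and *Usf2*, which encode E-box binding factors, were measured at 14.41 to 18.95 TPM and 57.29 to 76.61 TPM. The splicing factor genes *Ptbp1* (log2 fold change of 0.11 in *P0-3.9GFPCre*, edgeR adjusted p of 0.810) and *Hnrnpm* (−0.14 in *Le-Cre*, 0.591) had the smallest p in each line. *Irf1*, an interferon-induced factor, did not exceed 1.23 TPM in any pool.

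The genes around the members were compared with them, since they share the chromosome region. The study maps the *Le-Cre* transgene to another chromosome, so these are not genes beside its insertion site. *Ceacam2* and *Ceacam10* were chosen for higher levels in *Le-Cre*, so their contrast with neighbours in *Le-Cre* against *FVB/N* was set in advance. Of 99 genes within 500 kb of a member, 38 could be tested and 0 passed the cutoff in any comparison by edgeR. At an unadjusted p under 0.05, 6 of 38 were lower and 0 higher in *Le-Cre* against *FVB/N*, where 4.35% of all tested genes were lower and 3.6% higher, and 0 stood out in *P0-3.9GFPCre*. Their median log2 fold change was 0.01 in *P0-3.9GFPCre* and −0.08 in *Le-Cre* against *FVB/N*, and all *Le-Cre* pools lay above all *FVB/N* pools in 0 of the 38 (6.46% of all tested genes) and below them in 7 (7.03%). The tested genes nearest the members were *Lipe*, hormone-sensitive lipase, 62997 bases from *Ceacam1*, *Gm9844*, 77556 bases from *Ceacam10*, and *Atp5sl*, 79557 bases from *Ceacam2*. Their log2 fold changes in *Le-Cre* against *FVB/N* were 0.24, −0.50 and −0.01. Among all 38, the smallest p in *Le-Cre* was that of *Cadm4*, a cell adhesion gene nearest *Ceacam10*, at 0.568 CPM in *Le-Cre* against 1.72 CPM in *FVB/N* (log2 fold change of −1.60, edgeR adjusted p of 0.359). In *P0-3.9GFPCre* it was that of *Gsk3a*, a glycogen synthase kinase gene nearest *Ceacam1*, with a log2 fold change of −0.18 (edgeR adjusted p of 0.763).

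**Figure D5:**
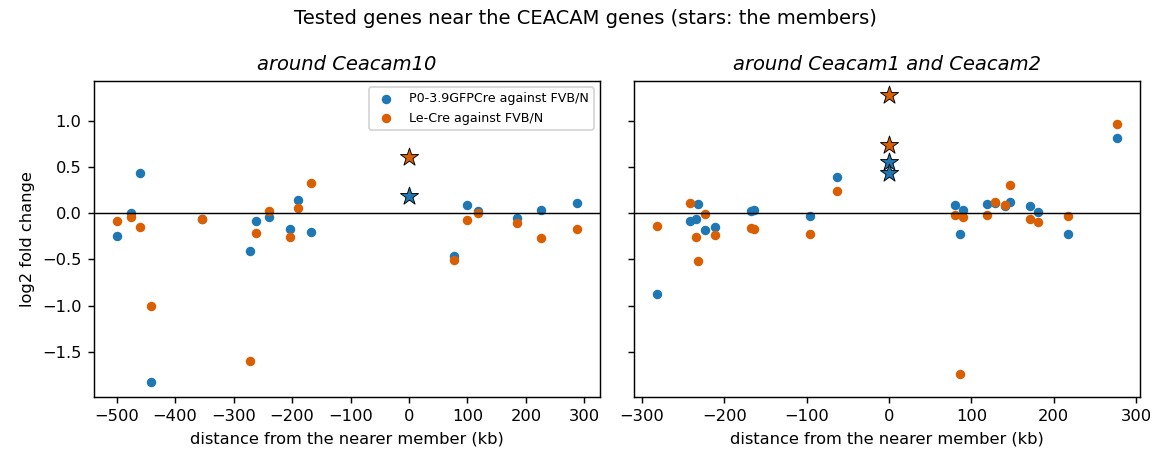
Log2 fold changes against *FVB/N* of the 38 tested genes within 500 kb of *Ceacam10* (left) or of *Ceacam1* or *Ceacam2* (right), by distance in kb from the nearer member, with the members as stars at 0. Most neighbours lie near or below 0, with a median of −0.08 in *Le-Cre*, while the stars lie above 0. In *Le-Cre* the stars of *Ceacam2* and *Ceacam10* lie there by the choice of these genes.

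CEACAM genes are expressed in several cell types that could adhere to a dissected lens, so marker lists of those cells were read beside them. In bulk RNA, fewer cells of a type and less RNA per cell cannot be told apart. Endothelial markers, 8 genes, summed to 58.2 to 63.7 TPM in *FVB/N*, 43.8 to 65.0 TPM in *P0-3.9GFPCre* and 53.7 to 65.3 TPM in *Le-Cre*, so the lines overlapped. Leukocyte markers, 12 genes, summed to 2.07 to 4.79 TPM over all pools, and *Ptprc*, which defines leukocytes, did not exceed 0.06 TPM. Of 8 neutrophil markers, *Ly6g*, *Elane*, *Ngp* and *Camp* were at 0 in every pool, and the list summed to 1.16 to 3.70 TPM. Of 8 markers of cornea, conjunctiva and eyelid epithelium, *Krt12*, *Krt14* and *Trp63* were at 0 in every pool, and the list summed to 2.13 to 3.37 TPM. Retinal markers summed to 2.17 to 6.65 TPM, those of pigmented and ciliary epithelium to 1.01 to 9.91 TPM, mesenchymal ones to 0.90 to 3.07 TPM and red cell ones to 85.2 to 262.5 TPM. The ranges of the lines overlapped in every one of these lists. Of the genes in these 8 lists, 0 passed the cutoff in any comparison by edgeR, and 1, the collagen gene *Col1a1* in *Le-Cre* against *FVB/N*, had an unadjusted p under 0.05 (log2 fold change of −2.07, adjusted p of 0.451).

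The summed levels of lens markers overlapped between lines as well. The 10 general lens markers had a median log2 fold change of −0.05 in both transgenic lines against *FVB/N*. The 7 lens epithelium markers, from the layer in which both transgenes are active, had medians of −0.15 in *P0-3.9GFPCre* and −0.19 in *Le-Cre*, and summed to 256 to 282 TPM in *FVB/N*, 249 to 274 TPM in *P0-3.9GFPCre* and 224 to 258 TPM in *Le-Cre*. Negative log2 fold changes were found for 5 of 7 epithelium markers in *P0-3.9GFPCre* and 7 of 7 in *Le-Cre*. In each of these lines 4 of 7 had all pools below all *FVB/N* pools, as had 5.94% and 7.03% of tested genes, and 2 of 7 were lower at an unadjusted p under 0.05. The smallest p in both lines was that of *Pdgfra*, a growth factor receptor gene, with −0.28 in *P0-3.9GFPCre* and −0.40 in *Le-Cre* (edgeR adjusted p of 0.590 and 0.169), and 0 markers passed the cutoff. The part of lens epithelium content in the levels of the CEACAM genes was not tested.

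Similarity of pattern over the 9 pools was described by Pearson's r of log2 CPM. The points share the differences between lines, library depth and the Y-linked sum, and no test was attached. *Ceacam2* and *Ceacam10* were chosen by one of these line differences, so a likeness to each other and to genes higher in *Le-Cre* is partly built in. *Ceacam2* and *Ceacam10* had an r of 0.87 with each other, *Ceacam1* and *Ceacam10* of 0.76, and *Ceacam1* and *Ceacam2*, which share reads, of 0.73. Outside the family, the genes most like *Ceacam2* were *Slc35d1*, a nucleotide sugar transporter gene (r = 0.98), *Cdkn1a*, the cell cycle inhibitor p21 (0.96), *Gadd45g*, a growth arrest gene (0.96), *Gabra4*, a GABA receptor subunit (0.95), and *Sbspon* (0.95). Of tested genes, 0.174% reached an r of 0.9 with *Ceacam2*. The genes most like *Ceacam10* were *Shmt1*, an enzyme of folate metabolism (0.95), the transcription factor gene *Zbtb7b* (0.95), the RNA-binding protein gene *Arid5a* (0.94), *Eda2r*, the ectodysplasin A2 receptor (0.93), and *March3*, a ubiquitin ligase gene (0.92), and 0.09% of genes reached 0.9. The sizes of the changes differed widely among these genes. *Gadd45g* stood at 24.4, 29.8 and 32.0 CPM on average in *FVB/N*, *P0-3.9GFPCre* and *Le-Cre*, whereas *Cdkn1a* stood at 1.23, 3.66 and 11.4 CPM and *Eda2r* at 0.158, 0.641 and 2.12 CPM.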

How the data were processed

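The authors trimmed single-end reads of polyadenylated RNA with Trimmomatic 0.36, mapped them to GRCm38 of C57BL/6J with GSNAP and quantified genes with RSEM 1.3.0; the annotation release is not given in the sources used here. The deposited tables give expected counts and TPM per gene for each pool. RSEM divides reads that match several genes, which limits *Ceacam1*. Posterior mean counts and credibility bounds in the same deposited files were read for the CEA family genes, and only bounds of *Ceacam1* are given here. Here expected counts were rounded, filtered with filterByExpr, normalized by TMM and fitted in edgeR 4.0.16 (R 4.3.3) by the quasi-likelihood test, with all 9 pools, 1 coefficient per line and Benjamini-Hochberg adjustment over 15557 genes. The cutoff of 1.5-fold and an adjusted p of 0.05 follows the study, which used DESeq2 1.10.1. Alternatives used DESeq2 1.42.0 and limma 3.58.1. The script was tested on simulated data. Positions come from GENCODE M21, which matched 47224 of 47729 identifiers, and promoters from RefSeq. Replicate numbers are those of the sample titles. The members and lists were chosen with earlier results of these data known. The genes named are the members, testable family genes, the smallest p of each list, the 5 most similar patterns and genes beside the cutoff. The motifs and the nearest neighbours, with genes named for their role, were chosen after their values or sequences were seen.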

Additional observations from a re-analysis of the deposited data

How the results depend on the processing

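The log2 fold changes of the members and of the sum of *Ceacam1* and *Ceacam2* in the 3 comparisons gave 228 values under the alternatives, and all kept their direction. In *Le-Cre* against *FVB/N*, 7 of them moved by more than the spread between pools. With a normal prior in DESeq2 they were 0.22 for *Ceacam1*, 0.61 for *Ceacam2* and 0.62 for the sum, since the prior shrinks fold changes. With the Y-linked covariate they were 0.77, 0.65 and 0.65, and with limma on log2(TPM + 0.5) *Ceacam1* was 0.47. *Ceacam10* stayed between 0.51 and 0.69 in that comparison. Leaving out each pool gave 0.69 to 0.80 for *Ceacam2* and 1.06 to 1.49 for *Ceacam1*. The other comparisons were not set against the spread between pools, only against the cutoff. With the normal prior *Ceacam1* went from 0.55 to 0.08 in *P0-3.9GFPCre* against *FVB/N* and from 0.72 to 0.14 in *Le-Cre* against *P0-3.9GFPCre*. No member passed the cutoff in the other comparisons under any of the 19 alternatives. In *Le-Cre* against *FVB/N*, which chose the genes, *Ceacam2* passed it in 7 and *Ceacam10* in 3 of the alternatives. These counts describe how passing the cutoff depended on the settings and are no test of the genes.

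The number of genes past the cutoff depended more on the settings. In *Le-Cre* against *FVB/N* it was 10, with 54 in DESeq2 without a prior, 131 without a filter, 5 with a mean of at least 10 counts, 2 with the replicate block, 0 with the Y-linked covariate, 1 and 0 with limma on TPM, and 0 or 1 without any single *FVB/N* or *Le-Cre* pool. In *P0-3.9GFPCre* against *FVB/N* it was 0, with 11 and 1 in DESeq2 without and with a prior, 93 without a filter, and 14, 1 and 3 without *FVB/N* pool 2, *FVB/N* pool 3 and *P0-3.9GFPCre* pool 2. In *Le-Cre* against *P0-3.9GFPCre* it was 0, with 39 and 4 in DESeq2, 123 without a filter, 31 with only the compared pools, 1 with limma and 18 without *FVB/N* pool 2. The causes were not tested. At an unadjusted p under 0.05 in edgeR, 530 genes were higher in *P0-3.9GFPCre* than in *FVB/N* and 565 in *Le-Cre* than in *P0-3.9GFPCre*.

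Pools of the same number in different lines showed little shared deviation, with a mean r of 0.03 over 9 pairs (−0.10 to 0.12). Pools of different number had a mean r of −0.01 over 18 pairs. The numbers thus gave no sign of pairing over the tested genes together, which cannot exclude a pairing that affects few genes. With the replicate block *Ceacam2* in *P0-3.9GFPCre* against *FVB/N* had a log2 fold change of 0.43 (edgeR adjusted p of 0.667), and *Ceacam10* in *Le-Cre* against *P0-3.9GFPCre* one of 0.43 (0.249). No member was called in those comparisons with or without the block. In *Le-Cre* against *FVB/N* the block left *Ceacam2*, *Ceacam10* and the sum outside the cutoff, at log2 fold changes of 0.74, 0.61 and 0.75. This too is a description, since that comparison chose the genes. With 8.38 to 38.69 counts per pool, depth limits *Ceacam1* most.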
